A study of Mus musculus with 24 samples.

Results

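Prrx1 binding in wound-healing fibroblasts was described by the chromatin around each binding site. The sites were the 5698 Prrx1 summits of the wild-type (WT) wound-healing library, of 16746 Prrx1 summits in the 3 WT fibroblast types of the series. A summit is the base of highest signal in a peak, and its score is the −log10 p-value of the peak caller. A score under 5, which is below the cutoff given in the methods for peaks of this kind, was found at 22.0% of the summits, and these were kept. Each summit was placed in 1 of 4 classes by whether an H3K27ac summit lay within 500 bp and whether the window of 250 bp on each side touched an H3K4me3 region of the same cells. Neither the Prrx1 score, the sequence nor the distance to a gene took part in this choice.

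The series holds 24 samples of chromatin immunoprecipitation sequencing (ChIP-seq) from mouse fibroblasts, with 1 library for each cell type, genotype and target. The wound-healing fibroblasts came from dorsal wounds of C57BL/6 mice, taken 10 days after wounding. WT cells of this type carried a non-targeting guide RNA (sgNS) with Cas9, and SG cells a guide RNA against Prrx1; the level of Prrx1 left in SG cells was not measured here. The other types were C57BL/6 mouse embryonic fibroblasts (MEF) and cancer-associated fibroblasts of MMTV-PyMT mammary tumors in FVB/NJ mice (MMTV-CAF), both used here in the WT state. All 3 types, WT and SG alike, had been immortalised with HPV E6/E7. The cells of a group are a culture, and how many animals they came from is not given in the sources used here. With 1 library in each group no difference between groups could be tested. The 95% intervals below are Wilson intervals of a share, Newcombe intervals of a difference or order-statistic intervals of a median, and they cover counting error over the summits of a single library only.

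Prrx1 is a homeodomain transcription factor of mesenchymal cells. Paired-type homeodomains bind short AT-rich words around TAAT, and the palindrome TAATTA joins a pair of such cores. H3K4me3 marks the start sites of active or poised genes, and H3K27ac marks active promoters and active enhancers. A site with both marks is therefore typical of an active promoter, an acetylated site without H3K4me3 of an active enhancer, and a site with neither mark lies outside the chromatin that is usually called active.

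The cell type label was checked on the H3K4me3 list. An H3K4me3 region covered a start site of 8 of 12 fibroblast markers, including Col1a1, Col1a2, Pdgfra, Pdgfrb, Thy1 and Vim, while Col3a1, Dcn, Lum and Fap had none. The mark lay at 3 of 10 keratinocyte markers (Cdh1, Dsp and Perp, with Krt5, Krt14 and Trp63 unmarked), 1 of 8 endothelial markers (Kdr), 1 of 10 immune markers (Cd14) and 0 of 6 skeletal muscle markers. A mark in a small share of the cells cannot be told apart from a weak mark in all of them.

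Most Prrx1 summits lay outside both marks. The class with neither mark held 3233 summits, 56.7% of all (55.4 to 58.0%). Both marks were found at 1251 summits (22.0%, 20.9 to 23%), acetylation only at 639 (11.2%, 10.4 to 12.1%) and H3K4me3 only at 575 (10.1%, 9.34 to 10.9%). With H3K27ac counted within 1000 bp, H3K4me3 only fell to 3.88% of all summits. Distance to the nearest acetylation separated the unacetylated classes. Of the summits with H3K4me3 only, 61.6% had an H3K27ac summit 500 to 1000 bp away, and the median distance was 841 bp. Of the summits with neither mark, 8.23% had one at that distance, 38.9% had none within 50 kb and the median distance was 29388 bp. Summits with H3K4me3 only were therefore mostly beside an acetylated site, whereas most summits with neither mark were far from one.

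The DNA at the summits differed from class to class. The sequences below are those of the highest-scoring summit of each class outside annotated exons, and of the highest-scoring summit with TAATTA within 50 bp. Each run holds the summit and 50 bp on each side on the plus strand of mm9, and capitals mark TAATTA.
Both marks, highest score (86.4), chr17:39981434-39981534, intergenic: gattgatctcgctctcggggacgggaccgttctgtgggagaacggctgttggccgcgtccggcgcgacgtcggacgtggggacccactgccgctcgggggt
Both marks, with TAATTA (score 22.6), chr6:52166806-52166906, 595 bp from a start site of Hoxa7: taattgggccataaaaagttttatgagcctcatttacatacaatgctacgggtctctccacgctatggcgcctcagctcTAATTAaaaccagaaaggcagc
Acetylated only, highest score (38.8), chr3:121279997-121280097, intergenic, 44785 bp from Slc44a3: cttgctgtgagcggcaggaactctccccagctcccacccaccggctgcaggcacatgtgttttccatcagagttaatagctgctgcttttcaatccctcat
Acetylated only, with TAATTA (score 36.9), chr10:128216647-128216747, intergenic, 11312 bp from Mmp19: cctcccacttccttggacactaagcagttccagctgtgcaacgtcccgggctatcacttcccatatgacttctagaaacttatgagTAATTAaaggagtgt
H3K4me3 only, highest score (209), chr9:44689483-44689583, 154 bp from a start site of Mll1: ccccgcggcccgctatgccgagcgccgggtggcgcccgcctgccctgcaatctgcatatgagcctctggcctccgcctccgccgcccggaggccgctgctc
H3K4me3 only, with TAATTA (score 26.6), chr8:75014871-75014971, intron, 1195 bp from a start site of Slc35e1: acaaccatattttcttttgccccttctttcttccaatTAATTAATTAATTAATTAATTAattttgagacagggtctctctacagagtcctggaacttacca
Neither mark, highest score (89.2), chr3:5860545-5860645, intergenic: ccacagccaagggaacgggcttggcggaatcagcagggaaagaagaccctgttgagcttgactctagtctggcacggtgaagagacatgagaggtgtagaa
Neither mark, with TAATTA (score 37.3), chr19:29177948-29178048, intron, 2133 bp from a start site of Rcl1: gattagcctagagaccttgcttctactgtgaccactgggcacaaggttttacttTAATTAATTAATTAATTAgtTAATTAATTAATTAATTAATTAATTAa

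The 4 summits of highest score held no TAATTA, and the GC content around them was 53.2 to 75.6%. The words at the summits with H3K4me3 only and with neither mark stood in tandem runs, with 5 and 10 overlapping copies of TAATTA in the printed bases, while each of the acetylated summits held a single copy. The 32 bases at the centre of the Slc35e1 site occurred 9 times in the assembly, and those of the highest summit with neither mark 3 times. Copies that the assembly lacks are not counted. The study's ChIP-seq methods name no removal of regions known to give false signal, and none was made here. Whether the summits of highest score are true Prrx1 sites was not tested.

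The scores of the classes overlapped almost fully. The median score was 5.89 (5.39 to 6.32) with both marks, 5.94 (5.39 to 6.32) with H3K4me3 only, 6.32 with acetylation only and 6.32 with neither mark. The scores took only 381 distinct values, the 10 commonest of which held 63.6% of the summits, and the interval of the last 2 medians fell on a single such value. Of all pairs of a summit with both marks and a summit with neither mark, the one with neither mark scored higher in 55.4% and lower in 38.2%, with ties in the rest. A score under 5 was found at 26.5% (24.1 to 29.0%) of summits with both marks and 19.9% (18.6 to 21.3%) with neither mark. A score of at least 10 was reached by 18.7% of summits with neither mark, 17.8% with acetylation only, 9.22% with H3K4me3 only and 8.63% with both marks. Both marks minus neither mark gave −10.1 points (−12.1 to −7.95), and acetylation only minus neither mark −0.873 points (−3.97 to 2.54), so the order of the last pair cannot be given over all summits. Without the tandem runs described below, acetylation only had the higher share of the pair. Among the 724 summits with a score of 10 to under 20, 71.7% (68.3 to 74.8%) had neither mark, against 51.4% (48.6 to 54.1%) of the 1254 summits with a score under 5. Above 20 the share with neither mark was 55.1% (47.3 to 62.7%) of 156 summits.

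**Figure D1:**
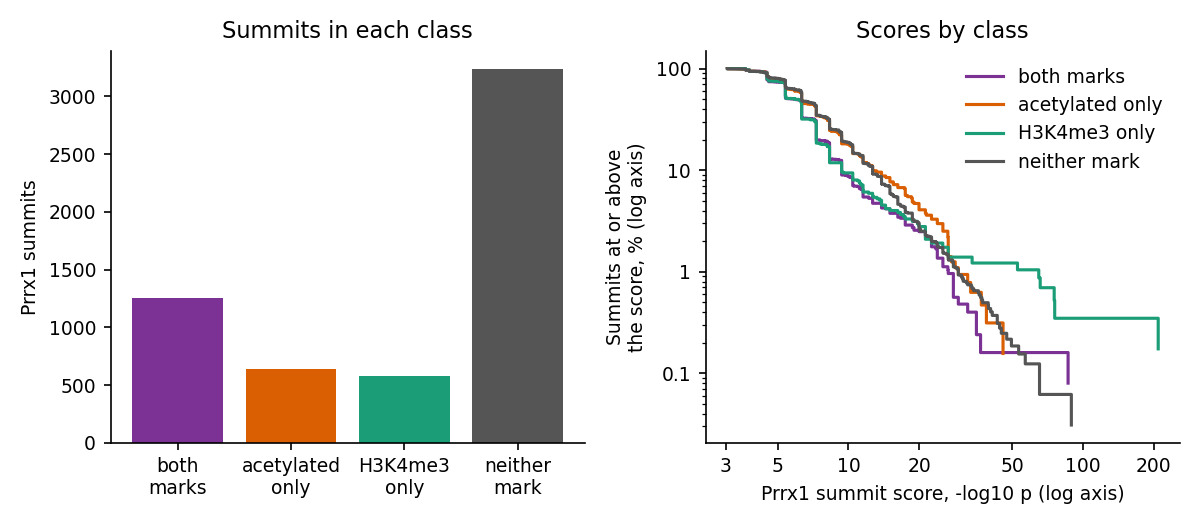
Left, number of wound-healing Prrx1 summits in each class (bars). Right, share of the summits of each class (%, log axis) at or above a given score (−log10 p, log axis); each line is 1 class. The lines for acetylation only and neither mark run above the other lines around a score of 10 (17.8% and 18.7% against 8.63% and 9.22%), and the line for H3K4me3 only has the longest tail, up to 209.

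The share of summits with TAATTA within 100 bp rose from 29.5% (27 to 32.1%) at scores under 5 to 60.4% (56.8 to 63.9%) at 10 to under 20, and was 30.8% (24.1 to 38.4%) of the 156 summits at 20 or more. Most of the 5 highest summits of each class held no TAATTA. The highest of all, 209 on chromosome 9 at 44689533, lay 154 bp from a start site of Mll1, which encodes an H3K4 methyltransferase, in a GC-rich window (75.6% GC) with no TAATTA. It was also present in MEF and MMTV-CAF. The next with H3K4me3 only was a score of 75.7 in an intron of Zc3h7a, followed by 75.4 on chromosome 17 at 39984560, 65.7 in an intron of Filip1l and 64.8 at 77 bp from a start site of Snx12. With both marks the highest, 86.4, lay on chromosome 17 at 39981484, in the same intergenic stretch as the summit of 75.4 just given, and the nearest protein-coding start site, that of Pgk2, was 364070 bp away. The next were 36.6 in an intron of Cbfa2t2, a transcriptional corepressor, and 35.1 at 1 bp from a start site of Col16a1, which encodes a collagen. With acetylation only the highest, 45.6, lay in the untranslated part of an exon 4210 bp from a start site of Ccdc97 and within 10 kb of Tgfb1, followed by summits near Slc44a3, Mmp19, Cacna1c and Pmepa1. With neither mark the highest were 89.2, 65.3 and 65.3, and the 32 bases at their centres occurred 3, 2 and 3 times in the mm9 assembly. None of the 5 highest in the classes with both marks, H3K4me3 only or neither mark held TAATTA within 100 bp, whereas 2 of the 5 with acetylation only (Mmp19 and Cacna1c) did. Over all summits, the central 32 bases occurred once in the assembly for 96.1%, and for 93.8% of those with neither mark.

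Summits near start sites lay mostly in the classes with H3K4me3, itself a mark of start sites. A protein-coding transcription start site (TSS) lay within 1 kb of 73.5% (71.0 to 75.9%) of summits with both marks and 51.3% (47.2 to 55.4%) with H3K4me3 only, a difference of 22.2 points (17.5 to 27). It lay within 1 kb of 3.91% (2.66 to 5.71%) with acetylation only and 3.22% (2.66 to 3.88%) with neither mark, which differed by 0.696 points (−0.719 to 2.58). Acetylation summits without Prrx1 within 500 bp had a TSS within 1 kb in 74.9% (74.3 to 75.6%) inside H3K4me3 and 5.28% (4.93 to 5.66%) outside. Those with Prrx1 had it in 75.2% and 4.87%. The shares with both marks and with acetylation only are thus near those of the marks without Prrx1. The median distance to a TSS was 292 bp (252 to 340) with both marks, 950 bp (873 to 1119) with H3K4me3 only, 24264 bp (21540 to 27374) with acetylation only and 30256 bp (28201 to 32764) with neither mark. With H3K27ac counted within 1000 bp, the share of H3K4me3 only near a TSS was 29.4%. At that limit acetylation only stood at 4.86% (3.64 to 6.46%) and neither mark at 2.86% (2.32 to 3.53%). With H3K4me3 over the summit base they stood at 9.11% (7.27 to 11.4%) and 4.17% (3.54 to 4.90%). The order of these 2 classes thus depends on the limits chosen. Within 100 bp of a TSS lay 27.6% of summits with both marks and 10.1% with H3K4me3 only. Beyond 100 kb lay 25% of summits with neither mark and 15.6% with acetylation only. Outside the 1 kb around start sites, both of these classes split between introns (43.2% and 41.5% of the class for acetylation only and neither mark) and intergenic DNA (51.0% and 53.9%), and exons held under 2% of each.

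**Figure D2:**
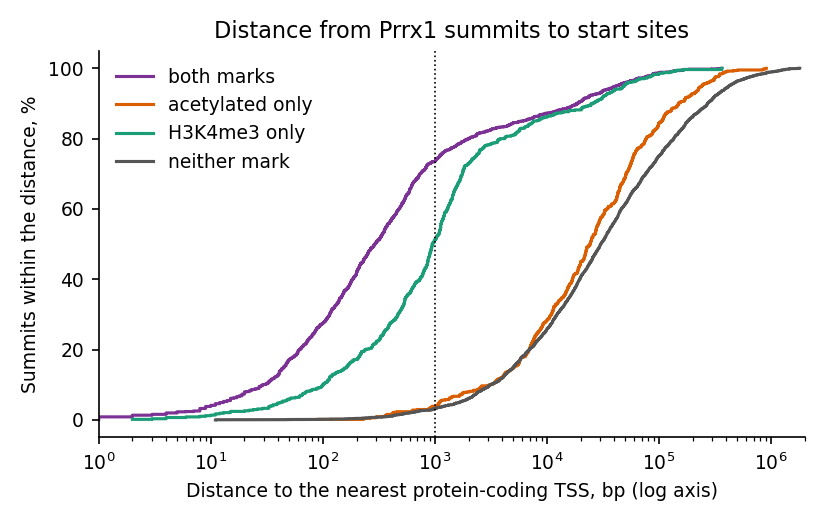
Cumulative share of Prrx1 summits (%) by distance to the nearest protein-coding TSS (bp, log axis), with 1 line for each class and a dotted line at 1 kb. At 1 kb the lines stand at 73.5% (both marks), 51.3% (H3K4me3 only), 3.91% (acetylated only) and 3.22% (neither mark).

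The marks themselves were stronger and wider where Prrx1 was found. Inside H3K4me3 regions, the median H3K27ac score was 27.6 (26.5 to 28.7) at the 1377 acetylation summits with Prrx1 within 500 bp and 21.2 (20.3 to 21.2) at the 17192 without. Outside these regions the medians were 13.5 (12.6 to 14.4) at 719 summits with Prrx1 and 10.8 at 14177 without. H3K4me3 regions with a summit of the class with both marks had a median width of 2279 bp (2190 to 2374), regions whose Prrx1 summits all lacked acetylation 2362 bp (2229 to 2572), and regions with no Prrx1 summit 1474 bp (1452 to 1492). Regions over 4 kb made up 13.9%, 20.4% and 4.49% of the same groups. Their median fold over input was 7.81, 7.26 and 6.47 in that order. A wider region offers more positions to a summit, and its part in these widths was not tested.

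The distances to the marks are limited by the rule of the classes and are given as a description. The median distance to the acetylation summit was 240 bp (230 to 251) with both marks and 277 bp (264 to 296) with acetylation only, within a limit of 500 bp. Of the summits with H3K4me3 only, 17.7% lay outside the region and were admitted by the flank of 250 bp, against 9.43% of those with both marks. For the summits inside a region the median distance to its border was 613 bp and 650 bp in that order.

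TAATTA was found in each class more often than in the DNA around it, and most often where neither mark was present. It lay within 100 bp of 57.7% (56.0 to 59.4%) of summits with neither mark, 28.5% (25 to 32.3%) with H3K4me3 only, 23.2% (20.1 to 26.6%) with acetylation only and 16.5% (14.6 to 18.7%) with both marks. The windows 2 kb to either side held it in 6.78%, 5.30%, 5.24% and 5.44%. Both marks minus neither mark gave −41.2 points (−43.8 to −38.4), and both marks minus acetylation only −6.61 points (−10.6 to −2.83). All consecutive windows of 201 bp of the genome held the word in 7.25%, and the windows at protein-coding start sites in 2.02%. Acetylation summits without Prrx1 held it in 1.01% inside H3K4me3 and 2.19% outside, and the windows 250 bp to either side of them, where Prrx1 lay in the bound ones, in 2.21% and 4.06%. Both acetylated classes thus held the word at a share several times that of acetylated sites without Prrx1.

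Base composition differed between the classes too. The median GC content of the 201 bp was 58.7% with both marks, 48.8% with H3K4me3 only, 46.8% with acetylation only and 39.3% with neither mark, and a window rich in A and T has more room for this word. Under 40% GC, which held 54.0% of the class with neither mark, the word was found at 73.4% (71.2 to 75.4%) with neither mark, 51.3% (40.3 to 62.2%) with both marks, 48.1% (39.0 to 57.5%) with H3K4me3 only and 32.1% (24.2 to 41.3%) with acetylation only. In windows with 40 to under 50% GC, where all classes had over 200 summits, the word was found at 45.5% (42.6 to 48.3%) with neither mark, 34.4% (29.0 to 40.2%) with both marks, 33.0% (27 to 39.6%) with H3K4me3 only and 24.1% (19.8 to 29.0%) with acetylation only. At 50 to under 60% the shares were 17.2%, 17.0%, 24.2% and 17.7% in that order and their intervals overlapped. At 60% GC or more, which held 47.2% of the class with both marks and at most 18.3% of the others, the word was found at 3.55% with both marks and at 5 to 5.71% in the other classes, with overlapping intervals. The class with both marks was thus not the lowest below 50% GC and had the lowest value above it, there with intervals that overlapped those of the others. Among all 2080 words of 6 letters, counted on both strands, TAATTA had the largest gap between summits and the windows 2 kb away in the classes with neither mark (51.0 points) and H3K4me3 only (23.2 points), came 3rd with acetylation only (17.9 points) and 113th with both marks (11.1 points). Among the 36 words made of A and T only, it came 1st in every class, with acetylation only at the same gap as AATTAA.

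Other words set the remaining classes apart. With acetylation only, GACTCA and GAGTCA, the arms of the AP-1 site, led the list, with 29.9% and 28.8% at the summits against 10.9% and 10.7% 2 kb away. The full AP-1 word TGANTCA, bound by Fos and Jun proteins, lay within 100 bp of 30.0% of these summits, 13.1% with neither mark, 7.13% with H3K4me3 only and 6.55% with both marks. The windows 2 kb away held it in 5.80 to 6.65% in the 4 classes, and those 250 bp from unbound acetylation summits outside H3K4me3 in 15.3%. The AP-1 word lay at 23.6% (17.5 to 31.1%) of acetylated-only summits with TAATTA and 32% (28 to 36.2%) of those without, with overlapping intervals. With neither mark it lay at 8.03% (6.89 to 9.36%) and 20.1% (18.1 to 22.3%) in that order, and over all summits at 8.68% (7.61 to 9.87%) and 16.1% (14.9 to 17.4%), and in both cases the intervals did not overlap. The TEAD word GGAATG was found at 18.8% and the Runx word TGTGGT at 21.4% of summits with acetylation only, against 14.1% and 16.4% at the unbound windows just named.

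With both marks, GC-rich words led. The GC box GGGCGG, bound by Sp and Klf factors, lay at 40.1% of summits with both marks and 22.4% with H3K4me3 only, against 34.5% of windows at protein-coding start sites. The ETS word CCGGAAG was found at 7.03% and the NRF1 word at 3.60% of summits with both marks, against 8.28% and 3.95% at start sites. The CTCF core was found at 3.99% of summits with neither mark against 1.52% 2 kb away, and at 2.19 to 2.32% in the other classes. The Smad word GTCTAGAC was found at 0.155% with neither mark, 0.174% with H3K4me3 only, 0.156% with acetylation only and 0 of 1251 summits with both marks, against 0.124%, 0.348%, 0.235% and 0.200% in the windows 2 kb away in that order and 0.152% of the windows of the genome. At 7 of all 5698 summits, this word is too rare to show or exclude an excess. The study reports Smad2, Smad3 and Smad4 motifs close to Prrx1 sites from another motif search. It also reports a complex of Prrx1 with Smad3 by co-immunoprecipitation. Those motifs were not searched here.

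**Figure D3:**
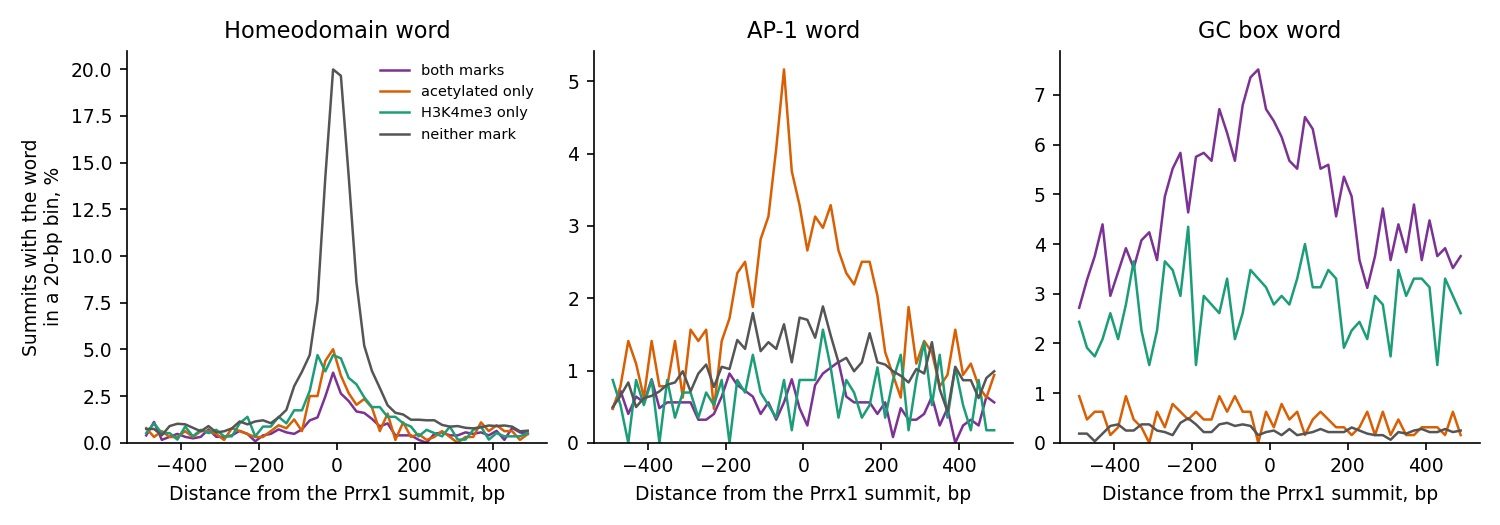
Share of Prrx1 summits of each class (%) with a word in bins of 20 bp, by distance from the summit (bp), for TAATTA (left), the AP-1 word (middle) and the GC box (right); each line is 1 class and the vertical axes differ. TAATTA peaked at the summit in every class, at 20% with neither mark and 3.76 to 5.01% in the others; the AP-1 word peaked with acetylation only, at 5.16%; the GC box peaked with both marks, at 7.51%.

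A large part of the class with neither mark was bound at a single kind of simple repeat. Because TAATTA often stood in tandem, runs of at least 12 bases of the repeated unit TAAT were counted, a measure added after the words had been seen. Such a run lay within 100 bp of 33.9% (32.3 to 35.5%) of summits with neither mark, 1095 of 3233. It lay near 0.879% with both marks, 1.10% with acetylation only and 1.22% with H3K4me3 only. The windows 2 kb from the summits with neither mark held a run in 0.108%, and all windows of the genome in 0.0894%. The homeodomain pair of TAAT and ATTA 2 bases apart was found at 35.6% of summits with neither mark, but its 2 inner bases were TA, as in the tandem run, in 97.6% of those, and without a run its share was 2.81%. The pair 3 bases apart, the spacing known for paired-type dimers, was found at 2.88% with neither mark, 1.74% with H3K4me3 only, 1.25% with acetylation only and 0.480% with both marks, against 0.541%, 0.522%, 0.313% and 0.480% 2 kb away.

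The share of runs that were bound rose with their length. The mm9 assembly held 12255 runs of at least 12 bases. A wound-healing Prrx1 summit lay within 100 bp of 4.26% (3.84 to 4.71%) of the 8365 runs of 12 to 15 bases, 12.2% (10.8 to 13.7%) of those of 16 to 19, 22.6% (19.9 to 25.5%) of those of 20 to 23, 43.0% (39.7 to 46.3%) of those of 24 to 31 and 75.3% (69.2 to 80.6%) of the 219 runs of 32 bases or more. Neighbouring runs can share a summit. The median score at the bound runs was 7.30 in the shortest group and 11.5 in the longest. MEF summits rose with length in the same way, from 5.80% to 64.4%, while MMTV-CAF summits lay at 3.17% of the shortest and 7.31% of the longest. Of all runs, 12139 lay where neither mark was present. Of the 26 runs with both marks 42.3% (25.5 to 61.1%) were bound, and of the 35 with acetylation only 25.7% (14.2 to 42.1%), against 14.5% (7.56 to 26.2%) of the 55 with H3K4me3 only and 10.7% (10.1 to 11.2%) of those with neither mark.

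**Figure D4:**
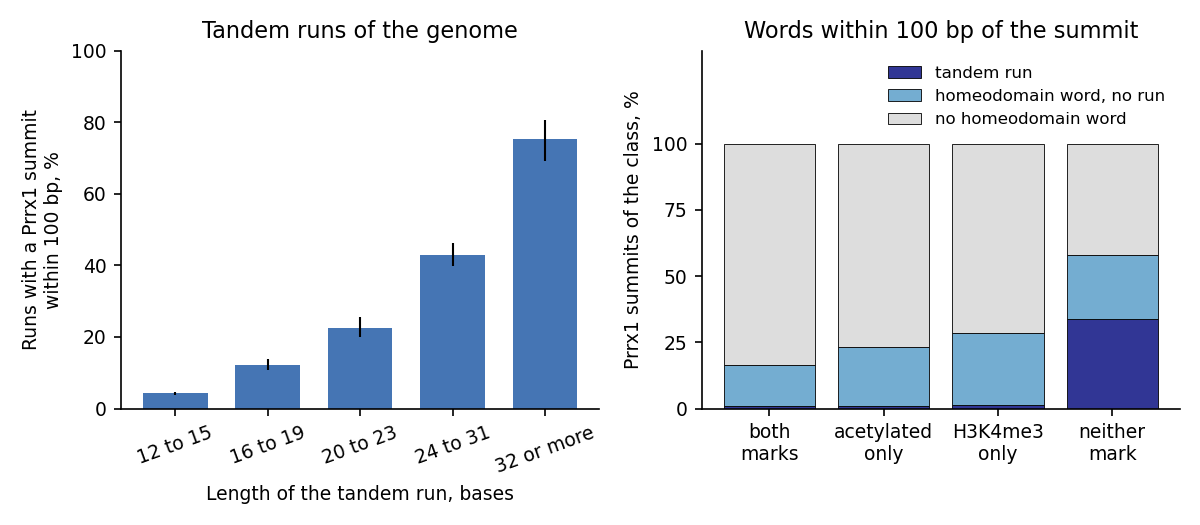
Left, share of the genome's tandem runs of the unit TAAT (%) with a Prrx1 summit within 100 bp, by run length in bases; bars are shares and error bars 95% Wilson intervals. Right, share of the summits of each class (%) with a tandem run, with TAATTA but no run, and with no TAATTA within 100 bp. The bound share rises from 4.26% to 75.3%, and the run accounts for 33.9% of the class with neither mark and at most 1.22% of the others.

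Summits at these repeats had a higher median score than the rest of the class with neither mark, but not its highest scores. The median score was 8.31 at summits with a run, 5.57 (5.41 to 6.19) with TAATTA but no run and 6.27 (5.89 to 6.32) with no TAATTA. A score of at least 10 was reached by 32.8% (30.1 to 35.6%), 6.99% (5.40 to 9.02%) and 14.1% (12.3 to 16%) in that order. The share of the class with TAATTA was 72.8% (68.8 to 76.5%) at scores of 10 to under 20 and 40.7% (30.9 to 51.3%) of the 86 summits at 20 or more, and none of its 5 highest held the word. Without the summits at a run, 46.7% of the remaining 4578 summits had neither mark, their median score was 5.94, 11.5% reached a score of 10 and 36.1% held TAATTA. The last share was still above the 27.6%, 22.3% and 15.8% of the classes with H3K4me3 only, acetylation only and both marks without a run. A score of 10 was then reached by 17.6% (14.8 to 20.7%) with acetylation only, against 11.5% (10.2 to 12.9%) with neither mark. With H3K4me3 only and both marks it was reached by 8.45% and 8.39%. With both marks, summits with TAATTA outside a run had a median score of 6.32 (6.32 to 7.19) and those with no TAATTA 5.39 (5.39 to 5.89).

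The periostin gene Postn shows such a site near a gene of the wound matrix. Periostin is a matrix protein of healing wounds. Its highest summit scored 12.6, 419 bp from a start site, with neither mark and the nearest H3K27ac summit 19083 bp away, and it was present in MEF and not in MMTV-CAF. The sequences of this site and of 4 others near genes of the lists below show the word alone and in a run; they were chosen after their values had been seen.
Postn, neither mark (score 12.6), chr3:54181851-54181951: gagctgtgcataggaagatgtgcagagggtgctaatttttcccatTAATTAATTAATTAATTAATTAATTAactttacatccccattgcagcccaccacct
Col1a1, neither mark (score 8.31), chr11:94816341-94816441: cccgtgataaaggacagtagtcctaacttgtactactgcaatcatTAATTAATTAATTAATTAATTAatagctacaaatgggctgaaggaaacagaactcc
Prrx1, neither mark (score 11.5), chr1:165245004-165245104: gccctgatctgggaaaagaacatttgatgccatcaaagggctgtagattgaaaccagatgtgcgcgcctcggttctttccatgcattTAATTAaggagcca
Prrx2, acetylated only (score 26.6), chr2:30689320-30689420: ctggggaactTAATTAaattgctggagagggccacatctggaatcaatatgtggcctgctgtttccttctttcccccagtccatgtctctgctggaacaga
Nfix, H3K4me3 only (score 17.2), chr8:87303943-87304043: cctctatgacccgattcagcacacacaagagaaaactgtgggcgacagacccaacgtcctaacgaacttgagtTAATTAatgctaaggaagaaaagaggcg

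The genes with a TSS within 1 kb of a Prrx1 summit numbered 1390, or 6.25% of 22225 protein-coding genes. The summit had both marks for 996 genes (4.48%), H3K4me3 only for 315 (1.42%), neither mark for 97 (0.436%) and acetylation only for 25 (0.112%), and 43 genes had summits of more than 1 class. The counts for H3K4me3 only and for acetylation only changed strongly with the settings, and the last section gives the other values. With the gene body and 10 kb on each side, 3740 genes (16.8%) held a summit, of which 1697 (7.64%) held one with neither mark, 1598 (7.19%) both marks, 734 (3.30%) H3K4me3 only and 388 (1.75%) acetylation only. Among the 12189 genes with an H3K4me3 region over a TSS, 11.0% had a summit within 1 kb of a TSS and 25.3% one in the gene or 10 kb of it. Longer genes offer more room, and the median length of a protein-coding gene was 15427 bp, so the median gene length is given with each list. Distances from a gene are to its nearest annotated transcript start. The lists are descriptions beside these shares, and nothing particular to a list was tested. H3K4me3 covered a TSS of 18 of 20 collagen, 14 of 20 matrix, 18 of 20 contractile and 19 of 20 TGF-β genes. It lay at 16 of 20 mesenchymal factors, 12 of 13 AP-1, 12 of 12 TEAD and 9 of 9 candidate factor genes. Of metalloproteinases and inhibitors 12 of 17 had it, of cytokines 7 of 16 and of growth factors 13 of 16. Where most genes were marked, 11.0% and 25.3% are the closer shares.

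Of 20 genes for fibrillar collagens and their cross-linking, 5 had a summit within 1 kb of a TSS and 10 in the gene or 10 kb of it (median length 35455 bp). Of the 5, 4 had a summit with both marks, as 996 of 1390 did over all genes. Pcolce, which enhances procollagen cleavage, had the highest, 29.4, at 74 bp from a start site, present in MEF and MMTV-CAF too. P4ha2 and P4ha1, which encode prolyl hydroxylases of collagen, had 7.30 and 6.32. Col1a2, a chain of type I collagen, had 4.50 with both marks at 85 bp from a start site and 6.32 with acetylation only at 879 bp from another, and in the gene a second summit with both marks (6.32) and 1 with H3K4me3 only (3.66). Farther from start sites, Loxl2, a collagen cross-linking enzyme, had 21.6 in an intron with neither mark, and Bmp1, the procollagen C-proteinase, had 18.7 with acetylation only. At Col1a1, 3 summits of 3 classes were found: 12.7 with acetylation only at 7131 bp from a start site, 3.79 with H3K4me3 only at 533 bp, and 8.31 with neither mark beyond the end of the gene, 9709 bp from the start of a shorter transcript, on the tandem run shown above.

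Of 20 genes for matrix glycoproteins and proteoglycans, 6 had a summit within 1 kb of a TSS and 13 in the gene or 10 kb of it (median length 34269 bp), and 7 of the 13 had one with neither mark. Over all genes, 1697 of 3740 did, a share near that of the list. Beside Postn, Fbln5, an elastic fiber protein, had 12.2 with both marks at 50 bp from a start site. Thbs2, an inhibitor of angiogenesis, had 6.32 with acetylation only at 234 bp, and Cyr61, a matricellular target of Yap, 5.39 with both marks. Tgfbi had 11.5 with neither mark, and fibronectin (Fn1) 9.36 with neither mark in an intron, with 5 overlapping copies of TAATTA within 100 bp.

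Of 20 contractile genes, 6 had a summit within 1 kb of a TSS and 11 in the gene or 10 kb of it (median length 24861 bp). At start sites the scores were near the median of 6.32 of all summits, with 8.15 at Palld with neither mark, 6.32 at Cald1 with H3K4me3 only, 6.32 at Flna with both marks and 5.39 at Actb with both marks. Higher scores lay farther away, with 18.7 in an intron of Actn1 with both marks, 17.5 in an intron of Cnn3 with acetylation only, 15 near Cnn2 with both marks and 13.2 in an intron of Tpm4 with H3K4me3 only. These genes encode actin cross-linkers, calponins and a tropomyosin.

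Of 20 genes of TGF-β signalling, 4 had a summit within 1 kb of a TSS and 10 in the gene or 10 kb of it (median length 66645 bp). The inhibitors Tgif1 (8.31), Skil (6.32) and Bambi (5.39) and the latency protein Ltbp1 (5.39) had them at start sites, Skil with H3K4me3 only and the others with both marks. The highest in the list, 45.6 with acetylation only, lay within 10 kb of the ligand gene Tgfb1, in an exon of its neighbour Ccdc97. The co-receptor gene Tgfbr3 had 17.8 and the ubiquitin ligase gene Smurf2 16.2 in introns, each with neither mark.

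Among 20 mesenchymal transcription factors, 4 had a summit within 1 kb of a TSS (Hoxc9 8.31, Zeb2 6.32, Snai1 5.41 and Tbx18 5.39) and 9 in the gene or 10 kb of it (median length 18561 bp). Snai1 had both marks and the other 3 H3K4me3 only. Prrx2, the paralog of Prrx1, had 26.6 with acetylation only, 1122 bp from a start site and 33 bp from an acetylation summit, with the TAATTA shown above. Prrx1 itself had 11.5 with neither mark 1213 bp from a start site, 731 bp outside an H3K4me3 region, and 6.32 with acetylation only 8524 bp from the nearest one, inside the gene.

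Of the 8 factors that the study names as candidate master factors of these fibroblasts, a list it chose on this series (median length 21360 bp with Col1a1 counted), Fosl2, Nfix, Cebpb and Junb had a summit within 1 kb of a TSS, and Klf4, Tead1 and Klf13 none in the gene or 10 kb of it. The study reports direct binding of Prrx1 to the super-enhancers, or clusters of enhancers, of the other factors. Super-enhancers were not mapped here, so the window of 10 kb does not test that statement. Nfix, on chromosome 8, had 8 summits, the most of the list: 4 with H3K4me3 only, 3 with both marks and 1 with neither, scoring 4.50 to 17.2. Fosl2 had 10.4 and 4.50 with H3K4me3 only, Cebpb 6.32 with both marks, and Junb, also on chromosome 8, 5 summits of 3.66 to 6.32. Of 13 AP-1 genes (median length 8484 bp) 3 had a summit within 1 kb of a TSS, at Fosl2, Junb and Jund, and 4 in the gene or 10 kb of it, none of which was with acetylation only or neither mark. Over all genes, 388 of 3740 held one with acetylation only and 1697 one with neither mark. Of 12 genes for TEAD, Yap and their targets (median length 25284 bp), 3 (Yap1 7.30, Cyr61 5.39 and Wwtr1 4.50) had a summit within 1 kb of a TSS and 5 in the gene or 10 kb of it.

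Genes for secreted proteins came last. Of 17 metalloproteinases and inhibitors, 0 had a summit within 1 kb of a TSS (upper limit 18.4%, above the 6.25% of all genes, so fewer could not be shown), and 7 in the gene or 10 kb of it, at a median length of 14712 bp. Timp2 had 29.4 with neither mark at 9606 bp from a start site, 555 bp from an acetylation summit and so just outside the limit for acetylation. Timp3 had 9.36 and Mmp2 9.11, each in an intron with neither mark. Of 16 cytokines and chemokines (median length 5613 bp), Il6 (6.28), Csf1 (3.66) and Ptgs2 (3.64) had a summit within 1 kb of a TSS, all 3 with both marks (996 of 1390 over all genes), and 5 one in the gene or 10 kb of it, among them Ccl2 (5.39, acetylation only) and Ccl7 (6.32, neither mark). Of 16 angiogenic and growth factors, 4 had a summit within 1 kb of a TSS and 8 in the gene or 10 kb of it, at a median length of 53914 bp. Angptl4, a secreted regulator of lipid uptake and vessels, had 25.3 with both marks at 357 bp, Vegfb 7.30 with both marks, Angpt2 6.32 with acetylation only and Fgf7 6.28 with H3K4me3 only. For comparison, of 79 cytosolic ribosomal protein genes, 76 of them with H3K4me3 at a TSS, 3 had a summit within 1 kb of a TSS and 12 in the gene or 10 kb of it, at a median length of 3243 bp.

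Some genes were the nearest to many summits of a class, often at a long distance; they were looked up after the values had been seen. Of those named here, Nrg1, Efnb2, Pard3, Col4a2, Irf2bp2 and Nfix lie on chromosome 8 and Thbs1 and Fmn1 on chromosome 2, the chromosomes with the most Prrx1 summits per Mb (6.38 and 4.15, against 0.288 to 2.89 on the others). Nrg1, a ligand of the ErbB receptors, was the nearest gene of 5 summits with acetylation only and 8 with neither mark, at medians of 88781 and 115440 bp. Vmp1, Fmn1 and Myc were each nearest to 5 with acetylation only, those of Myc at a median distance of 341803 bp. With neither mark, Efnb2 was nearest to 10 at a median of 678197 bp, Pard3 to 9 at 87154 bp, Thbs1 to 8 at 139230 bp, Cited2 to 8 at 424468 bp and Col4a2 to 7 at 20412 bp. With both marks the most was 4, at Irf2bp2, and with H3K4me3 only 4, at Nfix.

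The classes were found again to unequal degrees in the Prrx1 lists of the other fibroblasts. Within 500 bp of a summit with acetylation only, a summit was listed in MMTV-CAF for 47.9% (44.0 to 51.8%) and in MEF for 18% (15.2 to 21.2%). For both marks the shares were 32.6% and 5.44%, for H3K4me3 only 31.7% and 6.96%, and for neither mark 23.5% and 31.1% (29.6 to 32.8%). Sites with neither mark were thus found most often in MEF and least often in MMTV-CAF. Both marks minus neither mark gave −25.7 points (−27.7 to −23.6) in MEF and 9.11 points (6.16 to 12.1) in MMTV-CAF. The tandem runs carried the MEF share: 60.2% (57.3 to 63.0%) of summits with neither mark and a run were found in MEF, against 16.2% with TAATTA but no run and 16.3% with no TAATTA, and without runs the share in MEF was 16.3%, near the 17.9% of acetylation only. In MMTV-CAF the run had the lower share, 15.2% against 24.7% and 29.5%. The MEF and MMTV-CAF lists hold 3048 and 8000 summits, so the shares in the 2 types differ in what they can reach. With both other types pooled, the classes lay closer at scores of at least 10: a summit in MEF or MMTV-CAF was listed for 84.3% (both marks), 81.6% (acetylation only), 86.8% (H3K4me3 only) and 82.6% (neither mark) of them, with overlapping intervals, against 33.3%, 51.0%, 32.7% and 43.8% of all summits in the same order.

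Sorting the summits of the other types by their own marks gave different mixtures. Neither mark held 75% (73.4 to 76.5%) of MEF summits and 36.3% (35.2 to 37.3%) of MMTV-CAF summits, against 56.7% here. TAATTA was most frequent with neither mark in all 3 types, at 79.7% in MEF and 52.1% in MMTV-CAF, and a tandem run lay at 57.0% and 12.1% of those summits. In MEF the other classes held TAATTA in 34.5 to 50.4%, and in MMTV-CAF in 21.6 to 31.1%.

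Acetylation at the bound sites was compared with the SG cells, which carried the guide RNA against Prrx1. An H3K27ac summit was listed in SG within 500 bp of 77.5% (75.1 to 79.7%) of Prrx1 summits with both marks and 67.4% (63.7 to 71.0%) with acetylation only. Within 250 bp these shares were 39.7% and 28.2%. The WT acetylation summits themselves lay at median distances of 240 and 277 bp from these sites. The narrower limit therefore leaves out many of the sites in WT as well. Acetylation summits with and without Prrx1 were then compared within quartiles of the WT H3K27ac score. Inside H3K4me3, in the highest quartile, 83.3% (80.4 to 85.8%) of those with Prrx1 and 85.7% (84.8 to 86.5%) of those without were present in SG, and outside H3K4me3, in the lowest quartile, 56.8% (49.3 to 64.0%) and 50.2% (48.8 to 51.6%). In the highest quartile outside H3K4me3 the shares were 70.9% (61.8 to 78.6%) and 73.4% (70.3 to 76.2%), and the intervals with and without Prrx1 overlapped in all 8 pairs. In the 2 middle quartiles outside H3K4me3 the shares were 65.7% against 60.0% and 72.9% against 68.4%. Over all acetylation summits outside H3K4me3, 66.3% (62.8 to 69.7%) with Prrx1 and 59.0% (58.2 to 59.8%) without were present in SG, and these intervals did not overlap, while the summits with Prrx1 had the higher WT scores given above. A summit absent from the SG list may lie under its threshold, and 1 library in each state gives no spread to set against these values.

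At the unacetylated sites an H3K27ac summit was listed in SG for 30.1% (26.5 to 34.0%) with H3K4me3 only and 11.3% (10.2 to 12.4%) with neither mark, and within 250 bp for 13.0% and 4.70%. Positions 2 kb away that also lacked WT acetylation had one in 9.68% (7.94 to 11.7%) and 2.95% (2.56 to 3.40%). With neither mark, the share was 39.1% (33.4 to 45.1%) where a WT summit stood 501 to 1000 bp away and 8.80% (7.83 to 9.87%) where it was farther, and 1.55% at the tandem runs. The SG list is the longer, with 43058 summits against 33465 in WT. In the WT lists of MEF or MMTV-CAF, an H3K27ac summit lay at 22.2% of sites with neither mark, 43.5% with H3K4me3 only, 86.1% with acetylation only and 91.2% with both marks. An H3K4me3 region was listed in SG at 97.9% of sites with both marks and 93.2% with H3K4me3 only, at 17.7% of acetylated-only sites and at 4.30% of sites with neither mark.

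**Figure D5:**
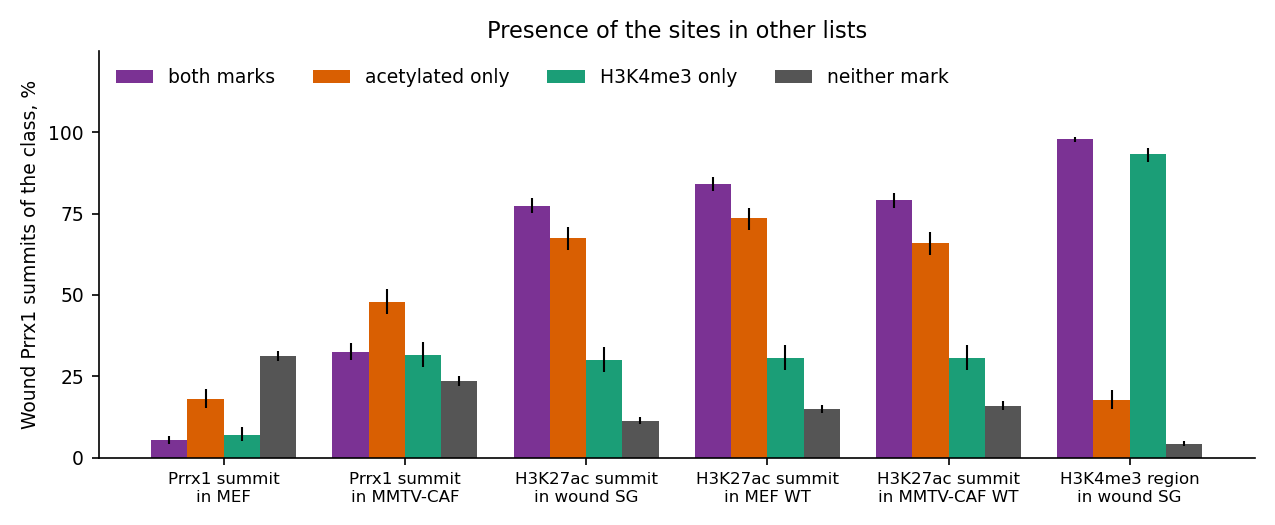
Share of wound-healing Prrx1 summits of each class (%) with a Prrx1 summit, H3K27ac summit (within 500 bp) or H3K4me3 region (within 250 bp) in 6 other lists; bars are shares and error bars 95% Wilson intervals. Neither mark has the highest share in the MEF Prrx1 list (31.1%) and the lowest in the SG H3K27ac list (11.3%), where both marks stands at 77.5%.

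Chromosomes 2 and 8 held more Prrx1 summits than their share of acetylation. Chromosome 8 held 14.7% of the Prrx1 summits and 6.44% of the WT H3K27ac summits, and chromosome 2 held 13.3% and 7.99%. Among those with fewer, chromosome 7 held 2.16% against 5.93% and chromosome X 0.842% against 1.80%. In the Prrx1 lists of the other types, chromosome 8 held 12.7% of the summits in MEF and 4.75% in MMTV-CAF, and chromosome 2 10.7% and 9.04%. The excess on chromosome 8 was found in every class, at 18.1% of summits with both marks, 17.9% with H3K4me3 only, 13.9% with acetylation only and 13.0% with neither mark. On both chromosomes together the share of tandem runs of 24 bases or more with a summit was 72.4% (63.7 to 79.7%) of 116, against 46.8% (43.7 to 50.0%) of 961 elsewhere. The number of copies of these chromosomes in the cells was not tested. Without chromosomes 2 and 8, the shares of the classes were 57.9% (neither mark), 21.1% (both marks), 11.2% (acetylated only) and 9.85% (H3K4me3 only), the shares with TAATTA 60.0%, 19.2%, 24.1% and 29.7%, and the median score with neither mark 6.86.

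The limits that define the classes cut through a continuum. The 311 summits with an acetylation summit at 401 to 500 bp, just inside the limit, had a median score of 5.89, a TSS within 1 kb for 45.7% and TAATTA for 20.9%. The 233 at 501 to 600 bp, just outside, had 6.32, 37.8% and 26.6%. Of the summits 151 to 250 bp from an H3K4me3 region, just inside, there were 79, with a TSS within 1 kb for 24.1% and TAATTA for 32.9%, and of those at 251 to 350 bp 39, with 28.2% and 33.3%.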

How the data were processed

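ChIP-seq peak lists on mouse build mm9 were used as deposited: 11 of 17 lists, from the WT libraries of 3 fibroblast types and the SG library of the wound-healing fibroblasts; the lists of edited MEF and MMTV-CAF were not used. Per the study's methods, the authors ran Trimmomatic on the reads, mapped to mm9 with Bowtie, used Picard for duplicate reads and MACS2 with an input control for peaks (broad mode for H3K4me3); whether repeats of the Prrx1 ChIP were pooled is not given in the sources used here. In the deposited Prrx1 and H3K27ac lists each line is a single base, the summit, and its −log10 p-value. The deposited H3K4me3 lists give regions, their fold over input, the −log10 of p and of q, and an integer display score that the authors' caller derives from q and that entered no result. Lists give no read depth. The lowest score was 3.05 for Prrx1 and 5.06 for H3K27ac, so that 22.0% of the Prrx1 summits scored under 5, the score of the p-value cutoff that the methods state for sharp peaks; which cutoff made the Prrx1 list is not given in the sources used here.

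Summits were classed as described, and 0 intervals lay beyond a chromosome end of the NCBIM37 assembly. Genes and start sites came from GENCODE vM1 (protein-coding genes, all transcripts). Words were sought on both strands within 100 bp; those not spelled out in the text are the NRF1 site, the NFI site (found at 0.0351% of all summits) and the CRE TGACGTCA (0.386%), the NF-Y word CCAAT (28.9%), and the CTCF core. Lists shared a site where summits lay within 500 bp. The members and lists were chosen with earlier results of these data known. Genes were named by rule: the 5 highest summits of each class, and for each list up to 4 genes with the highest summit within 1 kb of a TSS and up to 4 in the gene or 10 kb of it. Alternatives were another distance for acetylation, for H3K4me3 and for sharing, stricter scores, merged summits, all biotypes and a narrower word window; those without chromosomes 2 and 8, without repeated 32-base centres and without tandem runs were added after the data were seen. Functions were tested on made-up summits with known classes. The calculations ran in Python 3.11.15 (pandas 2.3.3, numpy 2.4.6, scipy 1.17.1), and plots were drawn with matplotlib 3.10.9.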

Additional observations from a re-analysis of the deposited data

Results flagged for a closer look

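In 5 contrasts between classes the sign was not the same in the 3 fibroblast types. The differences between types were not tested, since each type has 1 Prrx1 library. The median score with both marks minus that with acetylation only was −0.43 in wound-healing fibroblasts, 0.56 in MEF and −0.00482 in MMTV-CAF. Both marks minus neither mark gave −0.43, −0.75 and 0.67 in the same order, acetylation only minus neither mark 0, −1.31 and 0.67, and H3K4me3 only minus neither mark −0.39, −1.20 and 0.50. Sites with neither mark thus scored highest in MEF, where a tandem run lay at 57.0% of them, and lowest in MMTV-CAF, where it lay at 12.1%. The share with TAATTA, both marks minus acetylation only, was −6.61 points in wound-healing fibroblasts, 0.807 in MEF and −9.52 in MMTV-CAF. The MEF value rests on 150 and 475 summits.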

How the results depend on the processing

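Of 240 values recomputed, 169 stayed within the interval of the reported value, or within 1.5 times for counts of genes, and 71 moved. Neither mark remained the class with the largest share and the highest share with TAATTA in every alternative, and both marks the class with the highest share near a TSS. The lowest share with TAATTA passed to acetylation only at Prrx1 scores of at least 10, where the order of the classes in the other types also changed. With H3K27ac within 1000 bp, the class shares were 28.2% (both marks), 15.9% (acetylated only), 3.88% (H3K4me3 only) and 52.1% (neither mark); H3K4me3 only had a TSS for 29.4%, TAATTA for 32.6% and 69 genes, acetylated only 44 genes, neither mark TAATTA for 59.9%, and SG acetylation stood at 67.4%, 59.1% and 8.80% for both marks, acetylated only and neither mark. With H3K4me3 over the summit base, the shares were 19.9%, 13.3%, 8.30% and 58.5%, a TSS was near 77.3% with both marks, 9.11% with acetylation only and 4.17% with neither mark, and acetylated only had 68 genes. With H3K27ac scores of at least 10, the shares were 20.7%, 8.44%, 11.4% and 59.5%, and SG acetylation with neither mark 13.7%. With Prrx1 scores of at least 10 (880 summits), the shares were 12.3%, 13.0%, 6.02% and 68.8%; a TSS was near 55.6% (both marks), 34.0% (H3K4me3 only) and 4.13% (neither mark); TAATTA was at 25.9% with both marks and 68.3% with neither; the genes were 63, 4, 19 and 20; another type had a summit at 84.3%, 81.6%, 86.8% and 82.6%, and SG acetylation with both marks was 73.1%. Start sites of all biotypes gave 76.3%, 6.89% and 4.61% for both marks, acetylated only and neither mark, and 46 genes for acetylated only. TAATTA within 50 bp gave 11.5%, 16.3%, 18.1% and 44.9%. Sharing within 250 bp gave 28.9% (both marks), 46.8% (acetylated only) and 28.9% (H3K4me3 only) for another type, and 39.7%, 28.2%, 13.0% and 4.70% for SG acetylation. Without chromosomes 2 and 8, TAATTA stood at 19.2% with both marks and 60.0% with neither, the median score with neither mark at 6.86, and another type at 36.9% with both marks and 47.1% with neither. Without tandem runs, the class shares were 27.1%, 13.8%, 12.4% and 46.7%, and neither mark had a median score of 5.94, TAATTA at 36.1%, another type at 33.7% and SG acetylation at 16.3%. Merging summits or leaving out repeated 32-base centres moved no value. No paired analysis was possible because each group has 1 library, and leaving out a replicate could not be done for the same reason.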
